A study of Homo sapiens with 9 samples.

Results

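A group of 10 genes of the transforming growth factor beta (TGF-beta) pathway was taken by name from 58735 genes measured in pancreatic tumour cells: the ligand genes TGFB1, TGFB2 and INHBA, the receptor genes TGFBR1 and TGFBR2, the signal transducer SMAD3, the inhibitors SMAD7 and SKIL, and the target genes TGFBI and THBS1. Each name matched 1 row in both deposited tables, and 5 of the 10 genes (TGFB1, TGFBR1, TGFBR2, SMAD3 and SKIL) reached the mean of 1 FPKM that the test required. The study asked how collagen aligned by CPXM2 acts on gene expression and signalling in PaTu 8988t, an established human cell line from a pancreatic adenocarcinoma. CPXM2 is a secreted member of the carboxypeptidase family. RNA was sequenced from cells exposed to an extracellular matrix with wild-type CPXM2 (WT 1 to 3), a matrix with the CPXM2 mutant R213A (R213A 1 to 3) or a control matrix (control 1 to 3), 3 libraries each. All groups are the same line in DMEM with fetal bovine serum, so 1 tumour's cells stand for pancreatic cancer. No source used here states where the matrix came from, how long cells met it or if the replicates were separate cultures. The p-values then measure the spread between these libraries, and that spread may be technical.

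TGF-beta is secreted in a latent form that is held in the matrix by binding proteins and freed by integrins and proteases. The free ligand joins the type II receptor (TGFBR2) to the type I receptor (TGFBR1), a kinase that phosphorylates SMAD2 and SMAD3. These move with SMAD4 to the nucleus and act on target genes, and the pathway induces its own inhibitors SMAD7 and SKIL. In pancreatic cancer the pathway is known both for growth arrest and for invasion, and loss of SMAD4 is frequent.

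Values are FPKM, fragments scaled by gene length and by a depth per library, so levels can be compared between genes. They lie in a pair of tables that may have been scaled separately: a 4-library table with WT 1, R213A 1, R213A 3 and control 1, and a 5-library table with WT 2, WT 3, R213A 2, control 2 and control 3. Group differences were therefore formed within tables, while levels set across the tables are descriptions only. The libraries held 15951927 to 18312806 reads. Their FPKM totals over all genes ran from 239351 (R213A 2) to 390413 (R213A 1), and the levels given here are not divided by these totals. The depth that the values imply was 0.850 (R213A 1) to 1.09 (control 1) times the reads of the library. The values were thus not scaled by these reads alone, and the origin of the added factor is not given in the sources used here. In the 5-library table WT 2, WT 3, R213A 2 and control 3 lay close together, with 41 to 66 of 11193 genes at least 2-fold apart per pair. Control 2 differed from these in 376 to 416 genes, and pairs in the 4-library table differed in 387 to 2316. Of 6 epithelial markers 3 had a mean of at least 1 FPKM (KRT8, KRT18 and EPCAM), while KRT7, KRT19 and CDH1 lay below it. Of 11 fibroblast, 7 immune, 5 endothelial and 4 acinar markers 0 reached 1 FPKM, and the fibroblast markers summed to at most 0.971 FPKM in any library.

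The sequences before the start of TGFB1, TGFB2, SKIL and THBS1 are shown because the last 3 stood apart between the deposited tables while TGFB1 had its lower median in the 5-library table, and each has a single listed start (RefSeq, GRCh38.p14). Capitals mark CAGAC or its reverse complement GTCTG, a short motif bound by SMAD3 and SMAD4. The palindromic SMAD binding element GTCTAGAC, which does not contain it, was searched as well. The windows are chr19:41353923-41354172 on the minus strand for TGFB1, and on the plus strand chr1:218345086-218345335 for TGFB2, chr3:170357465-170357677 for SKIL and chr15:39580829-39581078 for THBS1.
TGFB1: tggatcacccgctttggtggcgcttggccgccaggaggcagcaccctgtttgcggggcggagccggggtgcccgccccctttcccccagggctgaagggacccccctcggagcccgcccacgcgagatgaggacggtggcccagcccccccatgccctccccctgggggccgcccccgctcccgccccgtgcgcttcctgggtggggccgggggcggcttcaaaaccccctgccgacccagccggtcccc
TGFB2: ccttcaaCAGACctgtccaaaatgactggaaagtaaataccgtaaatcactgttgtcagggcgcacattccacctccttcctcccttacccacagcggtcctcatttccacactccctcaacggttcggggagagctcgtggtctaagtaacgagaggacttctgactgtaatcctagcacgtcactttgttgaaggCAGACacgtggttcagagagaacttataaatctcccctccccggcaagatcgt
SKIL: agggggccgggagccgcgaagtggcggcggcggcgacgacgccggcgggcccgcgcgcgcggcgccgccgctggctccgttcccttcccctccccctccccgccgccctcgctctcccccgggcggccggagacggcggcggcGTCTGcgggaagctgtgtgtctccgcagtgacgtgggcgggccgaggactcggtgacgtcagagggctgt
THBS1: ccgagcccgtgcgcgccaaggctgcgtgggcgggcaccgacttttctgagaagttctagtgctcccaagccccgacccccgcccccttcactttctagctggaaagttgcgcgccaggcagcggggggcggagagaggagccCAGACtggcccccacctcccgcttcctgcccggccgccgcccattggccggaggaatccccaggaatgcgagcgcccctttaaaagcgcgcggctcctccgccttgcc
The TGFB2 window held 2 CAGAC elements, those of SKIL and THBS1 held 1 each and that of TGFB1 held 0. TGFBI also had a single listed start and its lower median in the 5-library table, and its window, not shown, held 0. TGFBR2 stood apart between the tables as well and held 0 in its windows, while some TGFBR1 windows held the element. So did some windows of SMAD3 and SMAD7, whose tables overlapped. A link between the motif and the tables was not tested. The SKIL window is shorter because 37 of its bases lie inside the gene as the files annotate it. Across all listed starts of the 10 genes, 11 of 24 windows of 250 bases held a CAGAC element on either strand, against 38.0% of 35116 windows in the table. Some TGFBR1 windows overlap and share an element, so the 24 windows are not separate sequences. The palindrome GTCTAGAC was found in 0 of the 24 windows (0.182% of all windows). The AP-1 element TGACTCA or TGAGTCA was found in 1, at an alternative start of SMAD3 (4.20% of all windows).

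Among the 10 genes TGFB1 had the highest level, with a mean of 57.3 FPKM over 9 libraries, followed by TGFBR2 at 23.2 FPKM. SKIL and TGFBR1 (8.74 and 7.31 FPKM) overlapped across libraries, with SMAD3 at 4.59 FPKM. TGFB2 and THBS1 (0.734 and 0.696 FPKM) and SMAD7 and TGFBI (0.326 and 0.315 FPKM) also overlapped. INHBA, at 0.00874 FPKM, had 12 reads in all 9 libraries together.

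**Figure D1:**
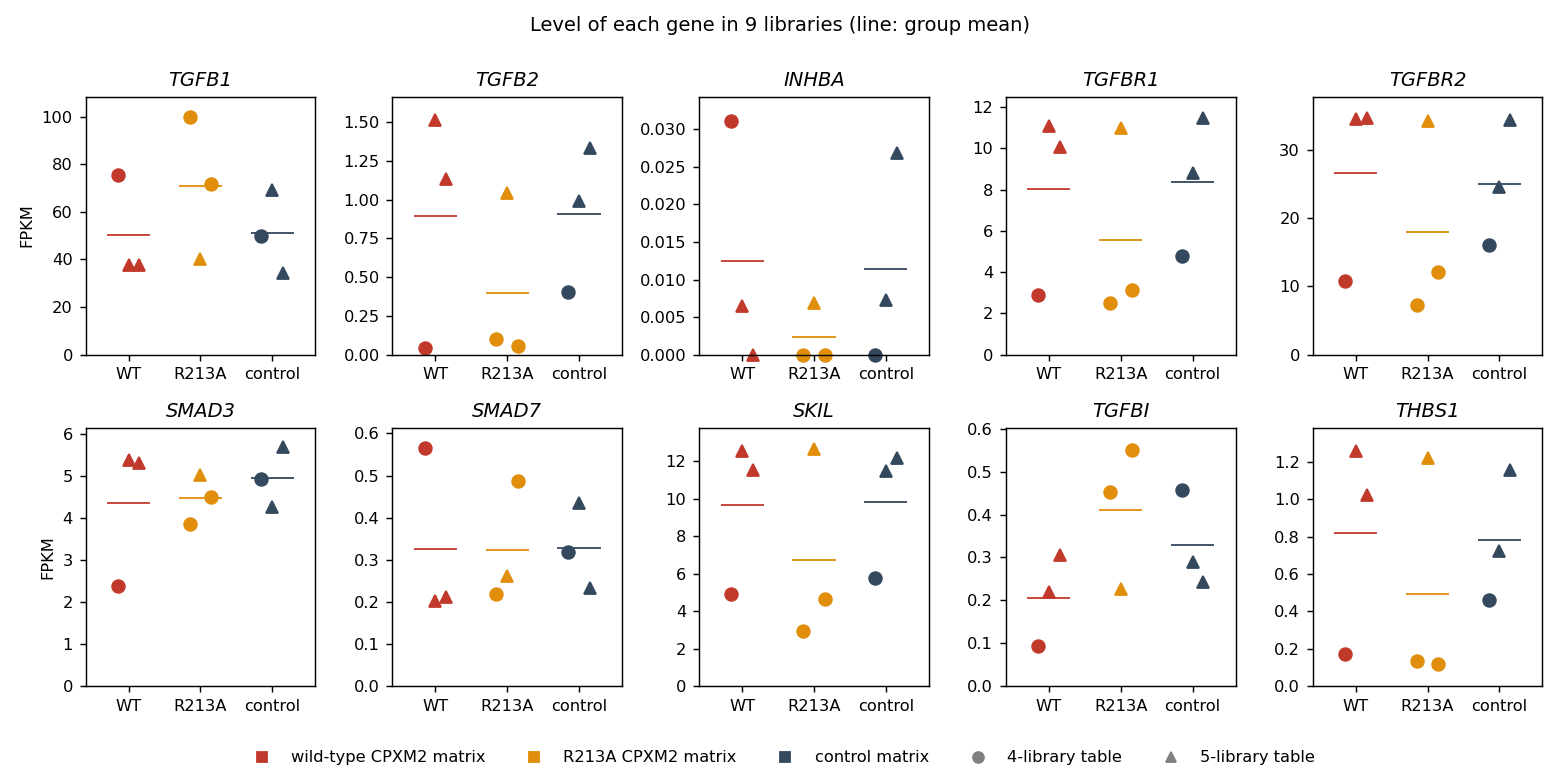
Level of each of the 10 genes in FPKM (vertical axes, each from 0, differing between panels) in the WT, R213A and control libraries, with circles for the 4-library table, triangles for the 5-library table and a line at the group mean. TGFBR1, TGFBR2, SKIL, TGFB2 and THBS1 separate by table, and the 3 groups overlap in each panel.

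TGFB1, the main TGF-beta ligand of epithelial tumours, was expressed in every library. In bulk RNA such as this, fewer cells with a transcript and less of it per cell cannot be told apart. It was at 75.4, 37.7 and 37.5 FPKM in WT 1 to 3, at 99.9, 40.3 and 71.7 FPKM in R213A 1 to 3, and at 50.0, 69.1 and 34.2 FPKM in control 1 to 3. R213A 1 was the highest library and control 3 the lowest, and the groups overlapped. R213A 1 also had the highest FPKM total over all genes. Means were 50.2 ± 21.8 FPKM on WT matrix, 70.6 ± 29.8 FPKM on R213A matrix and 51.1 ± 17.5 FPKM on control matrix (SD, n = 3 each), and R213A alone drew 2 of its libraries from the 4-library table. TGFB1 (hg38 chromosome 19, 41301587 to 41353911, minus strand) overlaps HNRNPUL1, CCDC97 and TMEM91 on the opposite strand. HNRNPUL1 had 2707 to 5981 reads per library and TGFB1 1986 to 4722, and whether the counting used the strand is not given in the sources used here. The share of TGFB1 reads that came from the opposite strand was not tested.

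TGFB2, a ligand that needs the co-receptor betaglycan for strong binding, was low and differed most between the tables. It was at 0.0402, 1.51 and 1.13 FPKM in WT 1 to 3, at 0.1002, 1.04 and 0.0528 FPKM in R213A 1 to 3, and at 0.404, 0.993 and 1.33 FPKM in control 1 to 3. Its lowest library held 4 reads and its highest 146. INHBA, the activin A subunit gene, had 5, 1 and 0 reads in WT 1 to 3, 0, 1 and 0 reads in R213A 1 to 3, and 0, 1 and 4 reads in control 1 to 3. A library with 0 reads allows up to 3 reads for counting error, so no group difference in INHBA was detectable at this depth.

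TGFBR1 and TGFBR2, the signalling receptors, were present in all libraries and higher throughout the 5-library table. TGFBR1 (chromosome 9, 99104038 to 99154192, plus strand) was at 2.89, 11.1 and 10.1 FPKM in WT 1 to 3, at 2.50, 11.0 and 3.14 FPKM in R213A 1 to 3, and at 4.77, 8.83 and 11.5 FPKM in control 1 to 3. TGFBR2 (chromosome 3, 30606502 to 30694142, plus strand) was at 10.7, 34.5 and 34.7 FPKM in WT 1 to 3, at 7.33, 34.2 and 12.2 FPKM in R213A 1 to 3, and at 16.1, 24.5 and 34.4 FPKM in control 1 to 3. For both receptors the low libraries were those of the 4-library table, whatever the matrix. Means of TGFBR2 were 26.6 ± 13.8 FPKM on WT, 17.9 ± 14.3 FPKM on R213A and 25.03 ± 9.16 FPKM on control matrix (SD, n = 3 each). The pair kept a narrow ratio, with 2.78 (control 2) to 3.88 (R213A 3) FPKM of TGFBR2 per FPKM of TGFBR1. The ratio of TGFB1 to TGFBR2 had a wider range. It was 7.03, 1.09 and 1.08 in WT 1 to 3, 13.6, 1.18 and 5.88 in R213A 1 to 3, and 3.10, 2.82 and 0.995 in control 1 to 3.

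**Figure D2:**
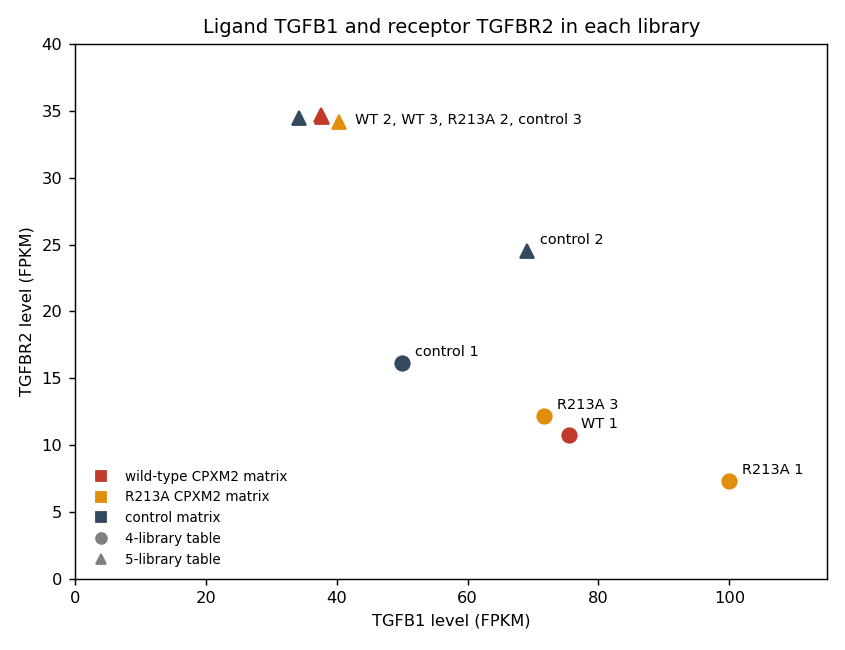
Level of TGFB1 (horizontal axis, FPKM) against TGFBR2 (vertical axis, FPKM), 1 point per library, with colours for the matrix, circles for the 4-library table and triangles for the 5-library table. WT 2, WT 3, R213A 2 and control 3 lie together near 34 FPKM of TGFBR2, and R213A 1 lies farthest from them with 99.9 FPKM of TGFB1 and 7.33 FPKM of TGFBR2.

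SMAD3, the transducer that binds DNA, lay between 3.85 and 5.67 FPKM in all libraries except WT 1. It was at 2.38, 5.38 and 5.31 FPKM in WT 1 to 3, at 3.85, 5.02 and 4.50 FPKM in R213A 1 to 3, and at 4.91, 4.26 and 5.67 FPKM in control 1 to 3. SKIL, the SnoN corepressor of SMAD complexes, was at 4.91, 12.6 and 11.5 FPKM in WT 1 to 3, at 2.95, 12.6 and 4.63 FPKM in R213A 1 to 3, and at 5.76, 11.5 and 12.2 FPKM in control 1 to 3. The SKIL libraries split by table as the receptors did, while the SMAD3 libraries of the tables overlapped. SMAD7, which blocks the type I receptor, was at 0.565, 0.201 and 0.210 FPKM in WT 1 to 3, at 0.220, 0.261 and 0.486 FPKM in R213A 1 to 3, and at 0.318, 0.436 and 0.233 FPKM in control 1 to 3. That was 15 to 55 reads per library, and the 3 groups overlapped.

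The matrix targets were low in these cells. TGFBI, a secreted protein that binds collagen and integrins, was at 0.0927, 0.218 and 0.305 FPKM in WT 1 to 3, at 0.453, 0.227 and 0.550 FPKM in R213A 1 to 3, and at 0.458, 0.289 and 0.243 FPKM in control 1 to 3. THBS1, the gene of thrombospondin 1, a matrix protein that can activate latent TGF-beta, was at 0.169, 1.26 and 1.02 FPKM in WT 1 to 3, at 0.137, 1.22 and 0.119 FPKM in R213A 1 to 3, and at 0.460, 0.725 and 1.16 FPKM in control 1 to 3. WT 1 was the lowest TGFBI library, and the 4 libraries of the 4-library table were the lowest for THBS1.

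Across the tables, TGFB2, THBS1, TGFBR1, TGFBR2 and SKIL were higher in every library of the 5-library table than in any of the 4-library table. The ratio of the table medians, 5-library over 4-library, was 14.8 for TGFB2, 7.56 for THBS1, 3.65 for TGFBR1, 3.01 for TGFBR2 and 2.55 for SKIL. It was 1.27 for SMAD3, 0.579 for SMAD7, 0.534 for TGFBI and 0.513 for TGFB1, whose tables overlapped. Of the 5 tested genes 3 were separated in this way, against 30.3% of all 11193 tested genes, and 23.7% of all tested genes were separated in the other direction. The 11 fibroblast markers also summed higher in the 5-library table (0.422 to 0.971 FPKM, against 0.105 to 0.139 FPKM in the 4-library table), and the 5 endothelial markers likewise (0.522 to 1.03 against 0.0834 to 0.164 FPKM). Most of these gaps lay in COL3A1 (mean 0.692 against 0.0256 FPKM) and CDH5 (0.494 against 0.0414 FPKM). DCN, LUM, PDGFRB, THY1, FBLN1 and KDR had lower means in the 5-library table. The immune markers summed lower there (0.0186 to 0.164 against 0.227 to 0.425 FPKM), and the part of such cells in the levels above was not tested. What the tables stand for is not stated, so table and culture, preparation or run cannot be told apart.

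Within each table a single control library stood at the edge. Of the 10 genes 6 (TGFB2, TGFBR1, TGFBR2, SMAD3, SKIL and THBS1) had their highest value of the 4-library table in control 1 and their lowest value of the 5-library table in control 2. TGFB1 had the reverse order, lowest in control 1 and highest in control 2. Among the tested genes 4 of 5 had the first order and 1 the second, against 14.5% and 14.6% of all tested genes. Control 1 is the sole control library of the 4-library table, so library and matrix cannot be told apart there.

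The first comparison asked what WT matrix did relative to control matrix. No difference in the 5 tested genes was larger than the spread between libraries: limma called 0 of 5, and 0 of 11193 genes in all (0%), with a smallest adjusted p of 0.757 over all genes. At an unadjusted p under 0.05 stood 503 genes (4.49%), and 0 of the 5. limma-voom on recovered reads also called 0 genes, with 425 unadjusted. All 5 estimates were below 0 (53.7% of all tested genes were), with a median of -0.05 on the log2(FPKM + 1) scale against -0.03 over all tested genes. SMAD3 had the lowest estimate, -0.20 ± 0.21 (SE; limma adjusted p = 0.794), which split into -0.81 (4-library table) and 0.10 (5-library table). TGFBR1 was at -0.15 ± 0.20 (limma adjusted p = 0.841), with -0.57 and 0.07 in these tables. Without WT 1 the pooled SMAD3 estimate was 0.06, and without control 1 that of TGFBR1 was 0.08. For TGFB1, TGFBR2 and SKIL the estimates were -0.05, -0.02 and -0.05, with 95% intervals of -0.75 to 0.66, -0.61 to 0.57 and -0.49 to 0.39. Within the 4-library table TGFB1 was at 0.58. Within the 5-library table it was at -0.36, or 0.13 without control 2. TGFBR2 was at -0.55 and 0.24 in these tables, and at 0.0059 in the 5-library table without control 2. The 13 mitochondrial transcripts, listed as a rough guide to RNA quality that was not checked here, had medians of -0.80 and 0.22 in the same tables. Their part in these values was not tested.

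The second comparison set R213A against control matrix. limma called 0 of the 5 tested genes and 0 of 11193 in all (0%, smallest adjusted p = 0.690), and at an unadjusted p under 0.05 stood 0 of the 5 and 341 genes in all (3.05%). limma-voom called 0 genes, with 214 unadjusted. TGFB1 was at 0.19 ± 0.33 (SE; limma adjusted p = 0.828), with a 95% interval of -0.54 to 0.93. SKIL was at -0.23 ± 0.21 (limma adjusted p = 0.705), TGFBR1 at -0.21 ± 0.21 (limma adjusted p = 0.716), TGFBR2 at -0.21 ± 0.27 (limma adjusted p = 0.781) and SMAD3 at 0.00 ± 0.22 (limma adjusted p = 0.996). In the 4-library table TGFB1 was at 0.75 and SKIL, TGFBR1 and TGFBR2 at -0.52, -0.60 and -0.71. In the 5-library table TGFB1 was at -0.27 and the other 3 at 0.09, 0.12 and 0.23. Without control 1 the pooled estimates were -0.25 for TGFB1, 0.09 for TGFBR1 and 0.18 for TGFBR2. Mitochondrial transcripts had medians of -0.38 and 0.11 in these tables, and their part was not tested. Gene length and GC content held 38.4% of the variance of R213A 1 from the mean of all 9 libraries, and 0.985% of that of control 1. The other libraries lay between 21.3% (control 2) and 32.1% (WT 2), with 30.3% in control 3. These deviations include the gap between the tables. After a correction for both the estimates of TGFB1, TGFBR1, TGFBR2 and SKIL were -0.01, 0.02, -0.13 and 0.05.

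The third comparison set WT against R213A matrix, the mutant form of the same protein, and through the table term its fit also drew on the control libraries. limma called 0 of the 5 genes and 0 of 11193 in all (0%, smallest adjusted p = 0.996), with 0 of the 5 and 117 genes (1.05%) at an unadjusted p under 0.05. limma-voom called 0 genes, with 100 unadjusted. The estimates were -0.24 for TGFB1, 0.07 for TGFBR1, 0.18 for TGFBR2, -0.21 for SMAD3 and 0.18 for SKIL, each with limma adjusted p = 0.996. TGFB1 had the widest 95% interval of the 5, at -0.97 to 0.49. SMAD3 was at -0.61 in the 4-library table, where WT 1 is the sole WT library, and at 0.08 in the 5-library table. In the 5-library table the 5 genes lay between -0.10 (TGFB1) and 0.08 (SMAD3).

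**Figure D3:**
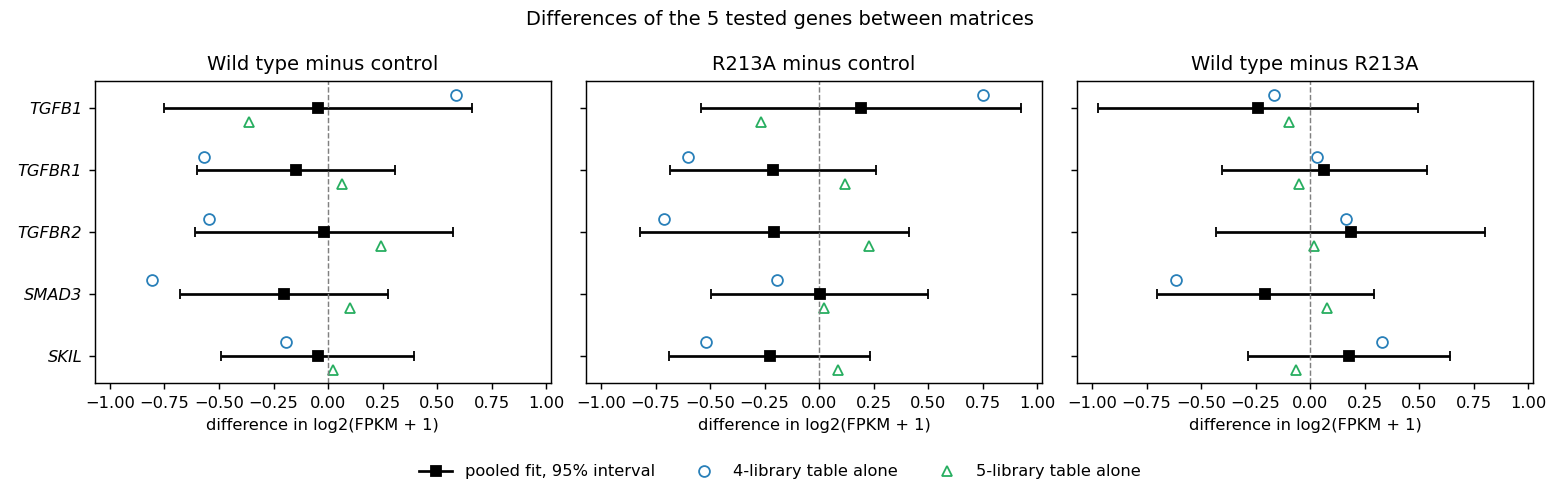
Differences of the 5 tested genes in log2(FPKM + 1) (horizontal axes) for WT minus control, R213A minus control and WT minus R213A, with squares and bars for the pooled estimate and its 95% interval, circles for the 4-library table alone and triangles for the 5-library table alone. Each of the 15 pooled intervals crosses 0, and for all 5 genes the tables lie on opposite sides of 0 in both comparisons with control.

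TGFB2, INHBA, SMAD7, TGFBI and THBS1 were outside the test, and with no filter on low values limma called none of them among 30368 genes (smallest adjusted p = 0.834, for TGFBI between WT and control). TGFBI was then at -0.14 ± 0.12 (SE) for WT against control and -0.19 ± 0.12 for WT against R213A. TGFB2 was at -0.19 ± 0.17 for R213A against control. Log2(FPKM + 1) understates the fold changes of genes this low.

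SMAD4, the partner that SMAD2 and SMAD3 share, had almost no counted reads. It had 3 reads over all 9 libraries, 1 each in WT 1, WT 2 and control 3, and 0 in the R213A libraries (hg38 chromosome 18, 51028394 to 51085045, plus strand). Its highest value was 0.00425 FPKM, and a library with 0 reads allows up to 3 reads. Its neighbours were looked up after this value was seen. Before SMAD4, ELAC1 lay at 0.692 to 1.88 FPKM, ME2 at 0.0764 to 0.416 FPKM and MRO at 0.0290 FPKM at most. After it, MEX3C lay at 0.631 to 6.15 FPKM, MBD2 at 4.13 to 6.54 FPKM and POLI at 0.0545 to 0.797 FPKM, and DCC had 0 reads in all libraries. ENSG00000267699, on the same strand, runs from 50968019 to 51058144, and it had 0 reads too. It so reaches into SMAD4 but not to its end at 51085045. How reads in both genes were counted is not stated, so whether the transcript was missing or its reads were not counted was not tested. SMAD2, the other TGF-beta transducer, was at 3.34 ± 0.830 FPKM on WT, 2.70 ± 1.07 FPKM on R213A and 3.82 ± 1.12 FPKM on control matrix (SD, n = 3 each). The BMP transducer SMAD5 was at 9.71 ± 5.24, 6.79 ± 5.62 and 10.6 ± 3.83 FPKM on these matrices, in the same order. SMAD6, the inhibitor of BMP signalling, reached at most 0.0947 FPKM. Of the 6 other SMAD genes 4 were tested, 0 were called and all 4 pooled estimates lay lower on both CPXM2 matrices than on control, with medians of -0.18 and -0.25. Of all tested genes 53.7% and 51.9% lay lower in these comparisons. In the 5-library table the SMAD medians were -0.07 and -0.04, or 0.03 and -0.0019 without control 2. There SMAD1 was at 0.16 for WT and 0.02 for R213A, and SMAD5 at 0.04 for R213A against control.

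**Figure D4:**
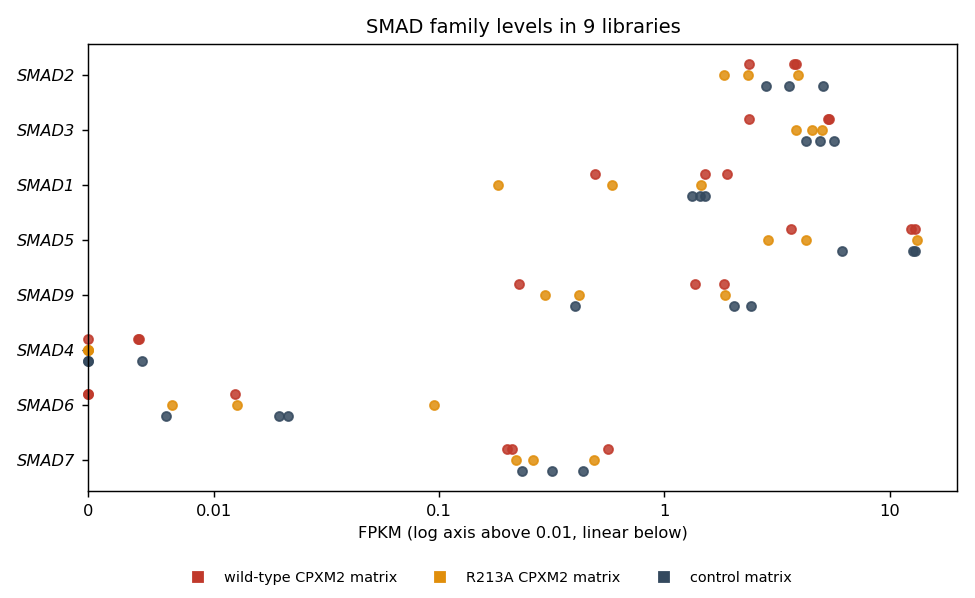
Level of the SMAD genes in FPKM (horizontal axis, log scale above 0.01 and linear below) in 9 libraries, with rows for the transducers SMAD2, SMAD3, SMAD1, SMAD5 and SMAD9, the common partner SMAD4 and the inhibitors SMAD6 and SMAD7, and colours for the matrix. SMAD4 lies at or below 0.00425 FPKM in each library, while SMAD2 and SMAD3 lie between 1.85 and 5.67 FPKM.

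Of the other receptors 7 of 11 were tested, and 5, 6 and 2 of these lay lower in WT against control, R213A against control and WT against R213A, with medians of -0.26, -0.32 and 0.04 (51.5% of all tested genes lay lower in the last). Without control 2 the 5-library medians against control were -0.05 for WT and 0.04 for R213A. TGFBR3, the betaglycan co-receptor that presents TGFB2, was at 0.915, 8.85 and 8.81 FPKM in WT 1 to 3, at 3.31, 9.57 and 2.54 FPKM in R213A 1 to 3, and at 6.11, 11.4 and 9.66 FPKM in control 1 to 3. Within each table every WT library was below every control library, as in 9.24% of all tested genes. The difference between WT and control was -0.78 ± 0.30 (SE; limma adjusted p = 0.757), or -1.89 by the 4-library table and -0.23 by the 5-library table, and without control 2 the second value was -0.12. TGFBR3 was the 1 tested gene of the 6 other lists at an unadjusted p under 0.05 in this comparison, against 4.49% of all tested genes. The lists had 4 (ligands), 7 (receptors), 4 (SMADs), 11 (inhibitors), 6 (latency and activation) and 16 (targets) tested genes. The activin receptor gene ACVR1 was at -0.55 ± 0.28 (limma adjusted p = 0.690) for R213A against control. That was -0.69 by the 4-library table and -0.20 by the 5-library table, or 0.0050 there without control 2.

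Of 13 other ligand genes 4 were tested and 0 were called. GDF15, a stress-induced ligand, was at 56.4 FPKM in WT 1 and at 0.869 to 2.79 FPKM in the other 8 libraries. TGFB3, the third TGF-beta isoform, reached at most 0.375 FPKM. Of 13 other inhibitors 11 were tested, with 3, 4 and 6 higher in the 3 comparisons and medians of -0.15, -0.24 and 0.01. Without control 2 the 5-library medians against control were 0.01 for WT and 0.05 for R213A. SKI, the corepressor related to SKIL, was at 12.2 ± 4.80 FPKM on WT, 10.2 ± 4.92 FPKM on R213A and 16.3 ± 2.11 FPKM on control matrix (SD, n = 3 each; limma adjusted p = 0.757 for WT and 0.690 for R213A against control). PMEPA1, an inhibitor that TGF-beta induces, was at 0.185 ± 0.0768, 0.118 ± 0.0677 and 0.195 ± 0.0684 FPKM on WT, R213A and control matrix.

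Genes that store and free the ligand had 6 of 17 members tested, and 0 were called, with medians of -0.11, 0.03 and -0.08 in the 3 comparisons. ITGAV, the integrin chain that binds the latent complex, was at 4.03, 34.6 and 34.3 FPKM in WT 1 to 3, at 4.01, 36.4 and 4.67 FPKM in R213A 1 to 3, and at 8.59, 41.6 and 37.8 FPKM in control 1 to 3. Its difference was -0.44 ± 0.20 for WT against control (limma adjusted p = 0.757) and -0.44 ± 0.21 for R213A against control (adjusted p = 0.690), which share the control libraries. By the 5-library table without control 2 these were -0.13 and -0.05. ITGB6, a partner of ITGAV in epithelial cells, had 0 reads in all 9 libraries and is named after its values were seen. The other integrin beta chains of this list, ITGB1, ITGB5 and ITGB8, averaged 158, 20.7 and 0.00939 FPKM over all libraries.

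Targets of the pathway other than TGFBI and THBS1 were expressed at very different levels, and 16 of 27 were tested with 0 called. In WT against control 9 lay higher and 7 lower (median 0.08), in R213A against control 6 and 10 (median -0.04), and in WT against R213A 10 and 6 (median 0.14). CCN2, the connective tissue growth factor gene and also a YAP target, was at 291, 378 and 410 FPKM in WT 1 to 3, at 148, 385 and 225 FPKM in R213A 1 to 3, and at 174, 1093 and 367 FPKM in control 1 to 3, with control 2 highest. CDKN2B, the cyclin-dependent kinase inhibitor p15, differed by 0.49 ± 0.22 between WT and R213A (SE; limma adjusted p = 0.996), or 0.91 by the 4-library table and 0.08 by the 5-library table. CDKN1A, the inhibitor p21, was at 75.7 FPKM in WT 1 against 6.64 FPKM in control 1. In the 5-library table it was at 42.4 and 46.4 FPKM in WT 2 and 3 against 48.4 and 38.3 FPKM in control 2 and 3.

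**Figure D5:**
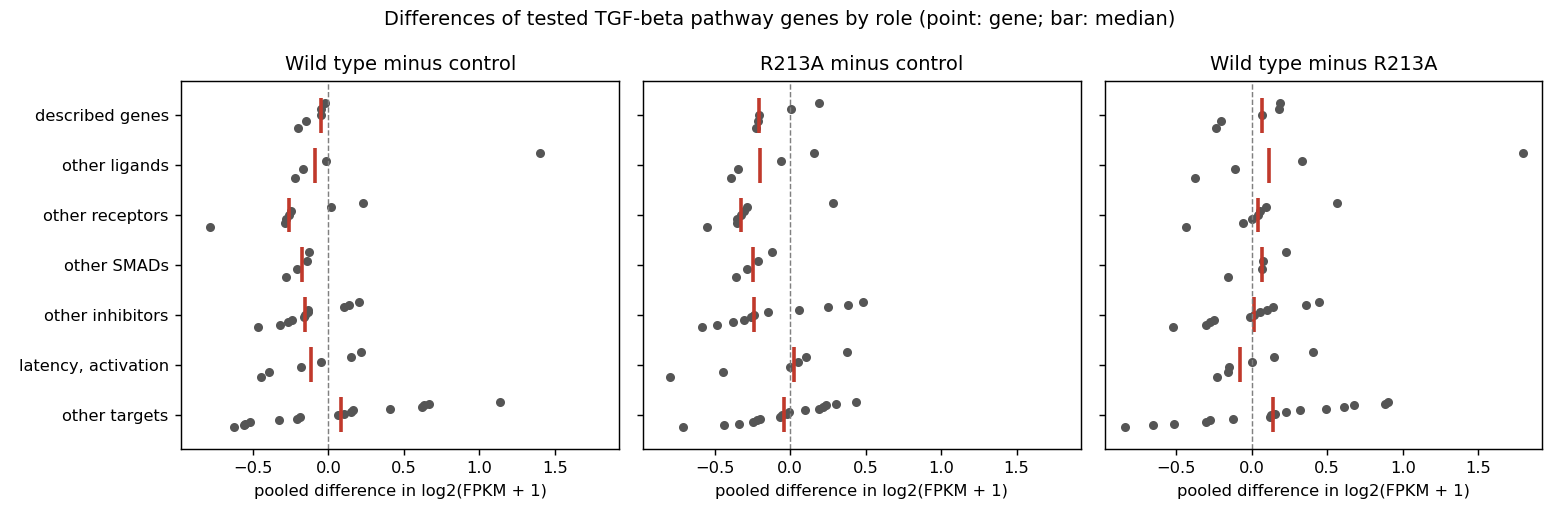
Pooled difference in log2(FPKM + 1) (horizontal axes) of tested TGF-beta pathway genes by role (rows) for WT minus control, R213A minus control and WT minus R213A, with a point per gene and a bar at the row's median. In the first panel the medians of the other receptors, SMADs and inhibitors are -0.26, -0.18 and -0.15, against -0.03 over all tested genes. By the 5-library table without control 2 they are -0.05, 0.03 and 0.01, and 0 genes are called in any panel.

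The genes nearest to TGFB1, TGFBR2 and SMAD3 in their profile were sought by the root mean square distance of the 9 deviations from the table means on the log2 scale, among the 6799 or 6800 other genes that averaged 5 FPKM or more. TGFB1, whose own deviations spanned 1.22, was nearest to TMEM132A (distance 0.0741), CRAT (0.0929) and ETV4 (0.0935). TGFBR2, with a span of 1.04, was nearest to SP2 (0.0441), PEX3 (0.0632) and KIF3A (0.0636). SMAD3, with a span of 0.81, was nearest to TTI1 (0.0583), NAT10 (0.0706) and ADIPOR2 (0.0714).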

How the data were processed

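RNA was extracted with TRIzol and sequencing libraries followed the Illumina TruSeq stranded mRNA guide, per the labels. FPKM values per gene were computed by the authors and deposited as a pair of tables. The submitters' processing notes name hg38 and bcl2fastq; how reads were aligned and counted, with or without strand, is not given in the sources used here. Gene coordinates and lengths match GENCODE 29 for all 58735 genes. To recover reads, FPKM times length was divided by a unit fitted in each library, starting from its smallest positive value. The result was whole for 100% of values above 0 (tolerance 0.01 reads).

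Levels were compared as log2(FPKM + 1) with limma 3.58.1 (R 4.3.3, mean-variance trend) in the 11193 genes averaging 1 FPKM or more, in all 9 libraries with group and table as terms. The Benjamini-Hochberg adjustment ran over all tested genes (threshold 0.05). The procedure was run on simulated data with equal noise in all genes and libraries, set below the typical spread here. That run cannot show how it performs with libraries as uneven as these.

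The 10 genes and the other pathway lists were chosen with earlier results of these data known. From each list the 4 genes of smallest p per comparison, and SMAD2, SMAD4, CCN2, TGFBR3, PMEPA1 and a gene not reported here, could be named. Those named were picked from them with values in view, and TGFB3, SMAD6, ITGB6, ITGB8 and neighbours of SMAD4 were added so. Alternatives changed the pseudocount, filter, scaling, table term, replicate block, libraries in the fit and test. Protein sequences were not used here.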

Additional observations from a re-analysis of the deposited data

How the results depend on the processing

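Under the alternatives 0 of the 5 tested genes were called, in all 72 counts, and the smallest adjusted p was 0.340 (SMAD3, WT against control, 4-library table alone). Of 357 member differences 299 kept their sign and 58 changed it; the cause was not tested. Over all genes, no filter gave 1 call in WT against control and 1 in R213A against control, both of them MAT2AP1. The 4-library table alone gave 775, 184 and 327 calls in WT against control, R213A against control and WT against R213A, with lone libraries assumed to vary like the R213A pair. The 5-library table without control 2, chosen after seeing the data, gave 14 and 16 calls against control. With each library left out in turn 0 genes were called.

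In WT against control the 5-library table alone gave 0.066 for TGFBR1, 0.24 for TGFBR2, 0.098 for SMAD3 and 0.025 for SKIL, and without control 2 it gave 0.13 for TGFB1 and 0.0059 for TGFBR2. The 4-library table gave 0.58 for TGFB1, and quantile scaling 0.043 for TGFBR2. limma-voom gave 0.0067 for TGFB1, 0.052 for TGFBR2 and 0.0074 for SKIL. The length and GC correction, chosen after seeing the data, gave 0.012 for TGFBR1, 0.048 for TGFBR2 and 0.15 for SKIL.

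In R213A against control SMAD3 was at -0.12 with no table term, -0.085 with only these groups, -0.19 in the 4-library table, -0.044 with limma-voom and -0.0037 with the length and GC correction. The 5-library table gave -0.27 for TGFB1, 0.12 for TGFBR1, 0.23 for TGFBR2 and 0.088 for SKIL, and without control 2 it gave -0.15 for SMAD3 and 0.048 for SKIL. The correction gave -0.014 for TGFB1, 0.017 for TGFBR1 and 0.048 for SKIL. In WT against R213A TGFBR1 was at -0.010 with only these groups and -0.0045 with the correction, and the 5-library table, with or without control 2, gave -0.051 for TGFBR1, 0.075 for SMAD3 and -0.064 for SKIL.

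Leaving out 1 library at a time gave ranges that crossed 0 in 12 of 15 cases. The other 3 were -0.45 to -0.042 for SKIL in R213A against control, and -0.48 to -0.077 for TGFB1 and 0.010 to 0.40 for SKIL in WT against R213A. In WT against control they were -0.38 to 0.34 for TGFB1, -0.32 to 0.079 for TGFBR1, -0.25 to 0.27 for TGFBR2, -0.36 to 0.062 for SMAD3 and -0.12 to 0.090 for SKIL. In R213A against control they were -0.25 to 0.52 for TGFB1, -0.39 to 0.089 for TGFBR1, -0.45 to 0.18 for TGFBR2 and -0.13 to 0.25 for SMAD3. In WT against R213A they were -0.030 to 0.24 for TGFBR1, -0.020 to 0.43 for TGFBR2 and -0.31 to 0.15 for SMAD3. The members called stayed at 0.

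Same-numbered deviations of WT and control from their group means correlated at 0.60, 0.34 and 0.57 for numbers 1 to 3. Those of R213A and control correlated at 0.73, 0.51 and -0.65. These deviations include the gap between the deposited tables, and R213A 3 and control 3 lie in different tables. The correlations therefore cannot show whether replicate numbers pair the samples. With the replicate number as a block 0 genes were called in each comparison, with 285, 632 and 125 at an unadjusted p under 0.05, and SMAD3 was at -0.015 in R213A against control.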
